A study of Mus musculus with 4 samples.

Results

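The 6 genes described here encode the receptors through which leukocytes of injured mouse muscle bind immunoglobulin G (IgG). They are *Fcgr1*, *Fcgr3* and *Fcgr4*, the activating Fc gamma receptors, *Fcgr2b*, the inhibitory one, *Fcer1g*, the signalling chain that the activating receptors share, and *Fcgrt*, the neonatal Fc receptor. The rule names them by gene symbol and uses no measured value, although earlier results of these data were known when the set was made, and all 6 were found among the 27998 genes of every library.

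As background, Fc gamma receptors on phagocytes bind antibody that coats a particle or cell. The activating receptors pass the signal through the common gamma chain, which Src family kinases phosphorylate and the kinase Syk then binds. The inhibitory receptor carries a motif of its own that recruits the phosphatase SHIP-1, encoded by *Inpp5d*, and so sets a threshold for activation. The neonatal Fc receptor pairs with beta-2-microglobulin inside endosomes and returns IgG to the cell surface, which spares it from the lysosome.

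The material was leukocytes of the tibialis anterior (a lower-leg muscle), which magnetic beads had enriched by their CD45. All mice were C57BL/6 males of 8 to 12 weeks that carried floxed *Bach1* alleles (Bach1 fl/fl), and all received cardiotoxin, a venom component that kills muscle fibres, at 2 or 4 days before collection (dpi2 and dpi4). The control group held Bach1 fl/fl littermates, and the group labelled KO also carried Lyz2Cre, a recombinase under the myeloid *Lyz2* promoter, so that lymphoid cells are not its intended target. Each of the 4 groups was 1 library of droplet-based 3′ single-cell RNA sequencing. No difference below therefore has a replicate check, no test was possible, and the intervals given are at 95% and cover counting error alone.

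The libraries held from 4177 to 6602 cell barcodes and from 57010520 to 80228489 UMIs (distinct captured RNA molecules), and from 3433 to 5721 cells were kept. Between 2 and 14 barcodes were shared by any pair of libraries. *Lyz2* followed the labels, with 9388 and 15845 CPM (UMIs of the gene per 1000000 UMIs) in the controls at dpi2 and dpi4 and 17.5 and 21.6 CPM in the KO-labelled libraries. *Bach1* did not, with 189 and 207 CPM in the controls and 187 and 217 CPM in the KO-labelled libraries, but UMIs at the 3′ end do not read the deleted exon and check nothing. The labels thus also set libraries with abundant *Lyz2* transcript against libraries nearly without it. In the differences below this cannot be told apart from the *Bach1* deletion. The leukocyte marker *Ptprc* lay between 530 and 635 CPM. The kept cells also held 105 endothelial cells and 58 fibroblasts, so the enrichment left some other cells. A cluster of 396 cells led by muscle transcripts such as *Mylpf* and *Acta1* took no name. In the control at dpi4 it had 2781 CPM of *Fcer1g* and 542 CPM of *Fcgr3*, where macrophages had 2534 and 486 CPM. Its cells are therefore not counted as muscle cells, and how they came to hold muscle transcripts was not tested.

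The genes *Fcgr2b*, *Fcgr4*, *Fcgr3* and *Fcer1g* lie close together on chromosome 1 of GRCm38, the assembly behind mm10. *Fcgr2b* (ENSMUSG00000026656) spans chr1:170958617-170976547 on the minus strand, *Fcgr4* (ENSMUSG00000059089) chr1:171018920-171029761 on the plus strand, and *Fcgr3* (ENSMUSG00000059498) chr1:171051174-171064935 on the minus strand. *Fcer1g* (ENSMUSG00000058715) follows at chr1:171229572-171234365 on the minus strand. *Fcgr1* (ENSMUSG00000015947) lies at chr3:96282909-96293969 and *Fcgrt* (ENSMUSG00000003420) at chr7:45092990-45103851, both on the minus strand. The parts of *Fcgr2b* and *Fcgr3* that encode the IgG-binding domains are near-identical, so reads from that part may not tell the genes apart. The libraries read the 3′ end, and how many reads came from that part was not measured.

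The 250 bases before the annotated start are shown for the 4 genes that differed most between the genotype labels in macrophages (RefSeq, GRCm38.p6, 5′ to 3′ on the gene's strand). Capitals mark matches, on either strand, to 5 motifs: the interferon gamma activation site TTCNNNGAA, the core of the interferon-stimulated response element, which is GAAA, any 2 bases and GAAA, the core GAGGAA bound by the myeloid factor PU.1, the AP-1 site TGANTCA and that site preceded by TGC, the longer site bound by BACH and MAF factors, whose matches all hold an AP-1 site.
Fcgr1, chr3:96293970-96294219: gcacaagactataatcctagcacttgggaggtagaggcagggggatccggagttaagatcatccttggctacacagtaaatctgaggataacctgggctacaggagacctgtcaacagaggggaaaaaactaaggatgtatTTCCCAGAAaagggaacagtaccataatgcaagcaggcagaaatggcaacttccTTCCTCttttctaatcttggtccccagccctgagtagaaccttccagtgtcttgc
Fcgr4, chr1:171018676-171018925: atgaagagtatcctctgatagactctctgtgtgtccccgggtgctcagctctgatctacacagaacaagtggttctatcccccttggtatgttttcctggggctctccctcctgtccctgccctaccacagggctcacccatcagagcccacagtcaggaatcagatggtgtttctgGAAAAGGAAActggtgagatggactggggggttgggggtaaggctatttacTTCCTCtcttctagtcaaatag
Fcgr2b, chr1:170976072-170976321: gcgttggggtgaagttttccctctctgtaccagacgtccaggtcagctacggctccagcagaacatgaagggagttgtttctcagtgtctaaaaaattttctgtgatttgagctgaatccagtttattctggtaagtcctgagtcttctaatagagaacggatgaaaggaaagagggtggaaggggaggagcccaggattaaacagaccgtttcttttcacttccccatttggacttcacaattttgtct
Fcgrt, chr7:45103823-45104072: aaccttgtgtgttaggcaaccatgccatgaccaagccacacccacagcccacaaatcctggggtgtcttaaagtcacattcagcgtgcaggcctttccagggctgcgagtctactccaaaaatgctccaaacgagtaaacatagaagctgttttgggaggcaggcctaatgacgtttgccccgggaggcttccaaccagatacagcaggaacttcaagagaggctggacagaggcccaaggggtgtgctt

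The *Fcgr1* window held the activation site as TTCCCAGAA, from 109 to 101 bases before the start, and a PU.1 core. The *Fcgr4* window held the response element core as GAAAAGGAAA, from 73 to 64 bases before the start, and a PU.1 core. No letters of the 5 motifs were found in the windows of *Fcgr2b*, *Fcgrt* and *Fcer1g*, and the pair of windows of *Fcgr3* held a PU.1 core. Among all 32851 windows of this length, 7.02% held the activation site, 2.98% the response element core, 23.3% the PU.1 core, 6.75% the AP-1 site and 0.353% the longer site. A match is a description of the letters, and no binding was measured here.

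*Fcer1g* was the most abundant of the 6 genes in every myeloid class, and the receptors that depend on it differed between classes. In macrophages *Fcer1g* had 2277 CPM (control, dpi2), 1878 CPM (labelled KO, dpi2), 2534 CPM (control, dpi4) and 2359 CPM (labelled KO, dpi4). Monocytes at dpi2 had 2959 and 2673 CPM, neutrophils at dpi2 had 2373 and 1960 CPM, and dendritic cells named cDC2 from *Cd209a* and other markers lay between 2037 and 2407 CPM in the 4 libraries. NK cells, which signal through the same chain, had 2261 CPM in the control at dpi2 and 1977 CPM in the KO-labelled library at dpi4. These levels were similar, whereas T cells, pooled over the libraries to 137 cells, had 386 CPM (343 to 434) and cDC1, the dendritic cells with *Xcr1* and *Clec9a*, had 381 CPM (357 to 407) over 156 cells. T cells are taken here as the background, since they should lack these receptors. This background is a coarse one, because only 14 to 52 T cells were kept per library and the libraries differed. *Fcer1g* in T cells was 646 CPM (527 to 783) in the control, against 38.6 CPM (7.95 to 113) in the KO-labelled library at dpi2. The 6 monocyte markers summed to between 591 and 2394 CPM in T cells, and their part in these levels was not tested.

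Monocytes had the highest level of *Fcgr1*, the high-affinity receptor. At dpi2 it reached 702 CPM (692 to 712) in control monocytes and 458 CPM (447 to 469) in KO-labelled ones, against 368 and 223 CPM in macrophages and 251 and 131 CPM in cDC2. At dpi4 macrophages had 256 CPM in the control and 205 CPM in the KO-labelled library, and cDC2 had 125 and 124 CPM. Neutrophils had 67.0 CPM (54.7 to 81.3) in the control, against 11.8 CPM (8.24 to 16.4) in the KO-labelled library at dpi2, and T cells had 58.3 CPM (42.2 to 78.5). Neither neutrophil value exceeded the T-cell background beyond its interval, so neutrophil *Fcgr1* is not read as expression. The same holds for NK cells, with 13.9 CPM (8.23 to 21.9) over 214 cells, and for cDC1, with 14.9 CPM (10.4 to 20.7).

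*Fcgr3* and *Fcgr4* were found in neutrophils as well as in monocytes and macrophages. In the control at dpi2 *Fcgr3* had 234 CPM in monocytes and 235 CPM in macrophages, and *Fcgr4* 99.8 and 71.2 CPM. *Fcgr3*, a low-affinity receptor, had 325 CPM (297 to 355) in control neutrophils and 295 CPM (276 to 315) in KO-labelled ones at dpi2, compared with 20.3 CPM (11.4 to 33.5) in T cells. *Fcgr4*, which binds the IgG2 subclasses, had 130 CPM (113 to 149) and 112 CPM (100 to 125) in the same neutrophils, where T cells had 10.8 CPM (4.68 to 21.4). In NK cells *Fcgr3*, their only known Fc gamma receptor, stood at 40.9 CPM (30.6 to 53.4), above the other receptors in these cells, though its interval met that of T cells. *Fcgr4* in NK cells was 3.08 CPM (0.840 to 7.90), which is at background.

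*Fcgr2b* and *Fcgrt* were the members above the T-cell interval in cDC1, where the activating receptors were at background. Over the 4 libraries cDC1 had 104 CPM (91.5 to 118) of *Fcgr2b* against 46.1 CPM (31.9 to 64.4) in T cells. They had 122 CPM (108 to 137) of *Fcgrt* against 19.0 CPM (10.4 to 31.8). The ratio of activating to inhibitory UMIs, that is *Fcgr1*, *Fcgr3* and *Fcgr4* together over *Fcgr2b*, was 0.299 (0.228 to 0.388) in cDC1, whose activating UMIs are at background. In the control at dpi2 it was 5.80 (5.63 to 5.98) in monocytes, 5.36 (5.20 to 5.53) in macrophages and 2.59 (2.29 to 2.93) in cDC2. Monocytes and macrophages were thus close at dpi2, and cDC2 lay under both. In neutrophils it was 10.3 (8.14 to 13.1), but *Fcgr2b* there, at 50.8 CPM (40.1 to 63.4), was within the T-cell interval, so that this ratio divides by a level not above background. A UMI stands for 1 captured molecule whatever the transcript's length, but the capture of 1 gene relative to another was not measured. In neutrophils *Fcgrt* was nearly absent, with 15 UMIs over 1615 cells, or 3.02 CPM (1.69 to 4.98). B cells numbered 50 in all, too few to place, and *Fcgr2b*, their known receptor, had 18 UMIs there.

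**Figure D1:**
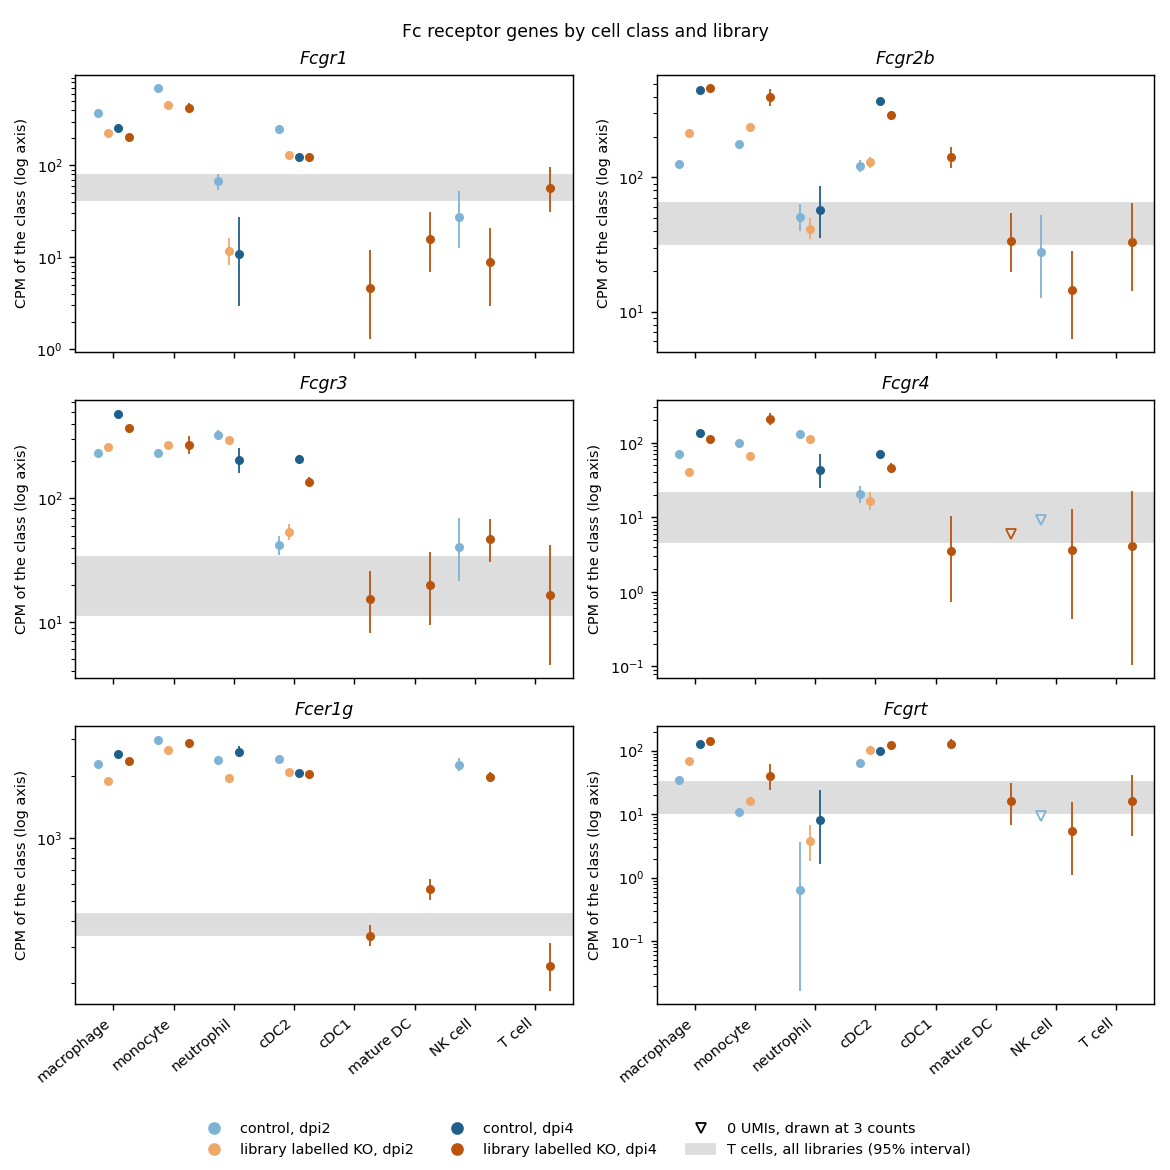
Level of each Fc receptor gene as CPM of the class (log axis) in each class and library with at least 50 cells; bars are 95% Poisson intervals, open triangles stand for 0 UMIs, and the grey band is the interval of T cells pooled over the libraries. *Fcer1g* was near 2000 CPM or above in macrophages, monocytes, neutrophils, cDC2 and NK cells (lowest 1878 CPM), while neutrophil *Fcgr1* fell on or under the band.

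At dpi2 macrophages of the KO-labelled library had less *Fcgr1* and *Fcgr4* and more *Fcgr2b* and *Fcgrt* than the control, with little difference in *Fcgr3*. *Fcgr1* had 368 CPM in the control and 223 CPM in the KO-labelled library, a ratio of 0.605 (0.588 to 0.623). *Fcgr4* had 71.2 and 41.0 CPM, a ratio of 0.576 (0.538 to 0.616). *Fcgr2b* had 126 and 213 CPM, a ratio of 1.69 (1.63 to 1.76), and *Fcgrt* had 33.9 and 68.9 CPM, a ratio of 2.03 (1.90 to 2.18). The control level of *Fcgrt* (interval 32.1 to 35.8) was only just above the T-cell interval of 10.4 to 31.8. The remaining members moved less. *Fcgr3* had 235 and 263 CPM, a ratio of 1.12 (1.09 to 1.15), and *Fcer1g* had a ratio of 0.825 (0.816 to 0.834).

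A difference is called here where it was at least 1.5-fold, its interval left out 1 and the pair of libraries held at least 50 UMIs. By this rule 4 of 6 members were called in macrophages at dpi2, 2 higher and 2 lower, while 11.3% of the 11122 genes with enough UMIs were called. The comparison held 1980 control cells at a median of 18164 UMIs and 1106 KO-labelled cells at a median of 26167 UMIs. Shares of cells went the same way after each cell was thinned to 2000 UMIs, which left out 59 and 29 shallower cells. A UMI of *Fcgr1* was then found in 50.8% (48.5 to 53.0) of control macrophages and 36.4% (33.5 to 39.4) of KO-labelled ones, and one of *Fcgr2b* in 20.4% (18.6 to 22.3) and 31.9% (29.2 to 34.8). In T cells, with a median depth of 4411 UMIs, these shares were 3.08% for *Fcgr1* and 3.85% for *Fcgr2b*. Without thinning, 93.1% and 91.0% of macrophages had a UMI of *Fcgr1*, and 67.0% and 87.3% one of *Fcgr2b*.

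In monocytes at dpi2 the 6 ratios had the same directions as in macrophages. *Fcgr1* was called lower, at 702 CPM in the control and 458 CPM in the KO-labelled library, a ratio of 0.652 (0.634 to 0.671). *Fcgr4* had 99.8 and 67.4 CPM and a ratio of 0.676 (0.626 to 0.729), just short of the rule. *Fcgr2b* had 179 and 239 CPM, a ratio of 1.34 (1.28 to 1.40), and *Fcgr3* had 234 and 270 CPM, a ratio of 1.15 (1.11 to 1.20). *Fcgrt* had 10.8 and 16.1 CPM, within the T-cell interval or at its lower end, so its ratio is not read. The rule called 1 of 6 members and 11.5% of the 9980 genes tested. Between alternative settings the count moved from 0 to 3. When sub-clusters of monocytes were given the control's weights, the log2 ratio of *Fcgr1* went from -0.62 to -0.28, which ended the call. That of *Fcgr4* then went from -0.57 to -0.14 and that of *Fcgr2b* from 0.42 to 0.55.

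In cDC2 at dpi2 *Fcgr1* was again lower and *Fcgrt* higher. *Fcgr1* had 251 CPM in the control and 131 CPM in the KO-labelled library, a ratio of 0.521 (0.460 to 0.588), and *Fcgrt* had 65.0 and 103 CPM, a ratio of 1.58 (1.32 to 1.90). *Fcgr2b*, at 121 and 130 CPM, had a ratio of 1.07 (0.927 to 1.24), whose interval holds 1. The rule called 2 of 6 members and 9.66% of the 7402 genes tested. In these cDC2 the monocyte markers summed to 3472 CPM in the control, against 2388 CPM in the KO-labelled library, and the macrophage markers to 535 and 830 CPM, whose part in the *Fcgr1* and *Fcgrt* values was not tested. In neutrophils at dpi2 the rule called 1 of the 5 members with enough UMIs, *Fcgr1*, beside 26.4% of the 5802 genes tested. That value is at background, as given above, and the summed level of 6 monocyte markers in these neutrophils moved with it, at 1648 CPM in the control and 639 CPM in the KO-labelled library, whose part in it was not tested. *Fcgr3* and *Fcgr4* in neutrophils had ratios of 0.908 (0.813 to 1.02) and 0.862 (0.721 to 1.03). Under TMM scaling these turned to log2 ratios of 0.23 and 0.16. The median log2 ratio of all genes was -0.31 there, and TMM moved it by 0.37. These neutrophils leave out an unnamed cluster whose best match was neutrophils, with 89 control cells and 490 KO-labelled ones at dpi2. Adding it put *Fcgr4* at 122 CPM (106 to 139) for control cells against 83.1 (75.2 to 91.7) for KO-labelled ones. *Fcgr3* then stood at 307 (282 to 334) against 248 CPM (234 to 263). In CPM the differences in neutrophils were thus larger with that cluster added. No TMM value was taken for the larger set, so the cluster and the scaling are not separated.

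**Figure D2:**
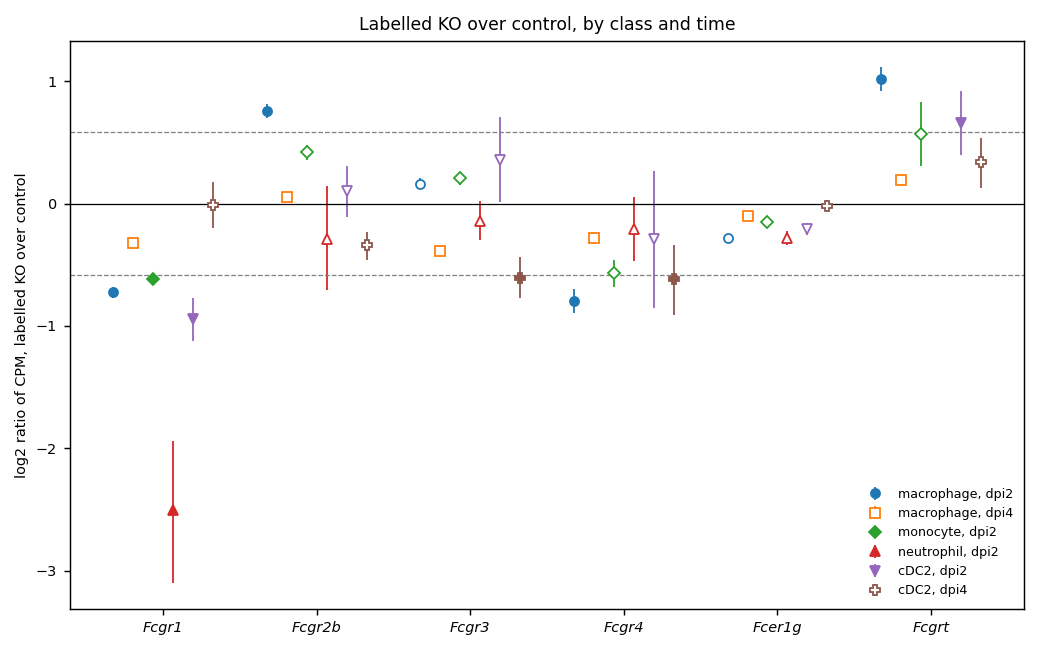
Log2 ratio of CPM, KO-labelled library over control, for each member in 6 comparisons; bars are 95% counting intervals, dashed lines mark 1.5-fold, and filled symbols passed the size rule. *Fcgr1* was below 0 at dpi2 in macrophages, monocytes and cDC2, and its neutrophil point comes from levels at background, while at dpi4 no macrophage ratio passed the lines.

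At dpi4 the differences in macrophages were small. *Fcgr1* had a ratio of 0.803 (0.783 to 0.825), *Fcgr3* of 0.766 (0.751 to 0.780) with 486 CPM in the control and 372 CPM in the KO-labelled library, and *Fcgr4* of 0.825 (0.796 to 0.855). *Fcgr2b* had 448 and 465 CPM, a ratio of 1.04 (1.02 to 1.06), and *Fcgrt* had 126 and 143 CPM, a ratio of 1.14 (1.10 to 1.18). No member was called, where 7.16% of 11950 genes were. In cDC2 at dpi4 *Fcgr3* had 209 and 137 CPM, a ratio of 0.657 (0.587 to 0.736), and *Fcgr4* had 71.3 and 46.3 CPM, a ratio of 0.649 (0.532 to 0.789). These 2 of 6 members were called lower beside 4.92% of 8046 genes. In the same cDC2 the summed level of the 9 macrophage markers was 6979 CPM in the control and 4125 CPM in the KO-labelled library, and its part in the *Fcgr3* and *Fcgr4* values was not tested.

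The balance of activating to inhibitory transcripts was lower in the KO-labelled library in macrophages, monocytes and cDC2 at dpi2. In macrophages at dpi2 the ratio was 5.36 (5.20 to 5.53) in the control, against 2.48 (2.41 to 2.55) in the KO-labelled library, or 0.462 (0.443 to 0.482) of the control value. Monocytes had 5.80 and 3.33, or 0.574 (0.546 to 0.603) of the control value, and cDC2 had 2.59 and 1.55, or 0.599 (0.503 to 0.713). Neutrophils had 10.3 (8.14 to 13.1) and 10.1 (8.37 to 12.2), which are not read because their *Fcgr2b* is at background. With the unnamed neutrophil-like cluster added, *Fcgr2b* was 66.8 (55.4 to 79.9) and 70.8 CPM (63.5 to 78.8), which still met the T-cell interval. No balance was taken for that larger set. At dpi4 macrophages had 1.96 (1.93 to 1.99) and 1.48 (1.46 to 1.51), or 0.757 (0.740 to 0.775) of the control value, and cDC2 had 1.09 and 1.05. The makeup of the activating UMIs differed too. *Fcgr1* gave 54.6% of them in control macrophages at dpi2 and 42.3% in the KO-labelled library, and 29.2% and 29.8% at dpi4, where *Fcgr3* gave 55.5% and 54.1%.

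The macrophages and monocytes of the libraries belonged in part to different clusters, so the members were also compared within 15 sub-clusters, named here by their leading genes. At dpi2 54.1% of control monocytes fell in the cluster led by *Plac8* and *Cxcl10*, and 51.0% of KO-labelled ones in the one led by *Vcan* and *Il6*. At dpi4 41.4% of control macrophages fell in the cluster led by *Sepp1* and *Gpr34*, and 32.1% of KO-labelled ones in the one led by *Slc40a1* and *Vcam1*. In 7 of 7 sub-clusters with at least 50 cells in each library at dpi2, *Fcgr1* was lower in the KO-labelled library with an interval under 1, at ratios from 0.603 to 0.912. The ratio of activating to inhibitory UMIs was lower in 7 of 7 as well, at 0.525 to 0.691 of the control value. *Fcgr4* was below 1 beyond its interval in 6 of 7, *Fcgr2b* above 1 in 6 of 7 and *Fcgrt* above 1 in 5 of 7. At dpi4 the balance was lower in 5 of 6 sub-clusters, at 0.809 to 0.925 of the control value. These counts go by the interval alone, in sub-clusters of the same pair of libraries at each time, so they are not repeats. The share of all genes passing that way was not taken. Past 1.5-fold at dpi2 were only 0.603, 0.624 and 0.663 for *Fcgr1*, 0.452, 0.496 and 0.530 for *Fcgr4* and 1.76 for *Fcgr2b*. The *Fcgrt* ratios counted ran from 1.61 to 4.44, and the last rests on 3 control UMIs. Of the sub-clusters behind them only the one led by *Gja1* and *Ppbp*, at 85.2 and 160 CPM, was above the T-cell interval of 10.4 to 31.8 CPM. The other *Fcgrt* ratios counted are therefore not read.

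Among these 7 sub-clusters the level of *Fcgr1* spread more widely than between the genotype labels within any of them. It was highest in the sub-cluster led by *Cxcl10* and *Ly6c2*, with 940 CPM over 978 control cells and 790 CPM over 140 KO-labelled cells. It was lowest in the cycling sub-cluster led by *Top2a*, with 252 and 152 CPM. The highest balance at dpi2 was in the sub-cluster led by *Fabp4* and *Pdpn*, with 8.60 (8.19 to 9.04) in the control, against 5.84 (5.22 to 6.56) in the KO-labelled library, where *Fcgr2b* had 77.2 and 104 CPM. *Fcgrt* in this sub-cluster, which held 1188 control cells, was not above the T-cell interval, at 9.77 and 15.7 CPM. The sub-cluster led by *Gja1* and *Ppbp* also had *Cd163* and *Lyve1* among its leading genes. Among the 7 it had the highest *Fcgrt* at dpi2, at 85.2 and 160 CPM. The cycling sub-cluster, at 59.8 and 54.0 CPM, was above the T-cell interval too. Its *Fcgr2b*, that of the *Gja1* sub-cluster, was 261 and 354 CPM, close to the 228 and 312 CPM of the *Cxcl10* sub-cluster. The sub-cluster led by *Arg1* and *Jag1* held 518 KO-labelled cells and 38 control cells, and had 183 CPM of *Fcgr1* and 174 CPM of *Fcgr2b* in the KO-labelled library.

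When the levels of both libraries were averaged over sub-clusters with the control's weights, using those with at least 20 cells in each library, the macrophage differences at dpi2 kept their directions and shrank. The log2 ratio of *Fcgr1* went from -0.72 to -0.41, that of *Fcgr4* from -0.80 to -0.54, that of *Fcgr2b* from 0.76 to 0.37 and that of *Fcgrt* from 1.02 to 0.62. The balance went from 0.462 to 0.650 of the control value. *Fcgr1*, *Fcgr2b* and *Fcgr4* were then under 1.5-fold. At dpi4 the same weighting gave 0.870 of the control value for the balance, and it turned the small log2 ratios of *Fcgrt* from 0.19 to -0.09 and of *Fcgr2b* from 0.05 to -0.07.

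**Figure D3:**
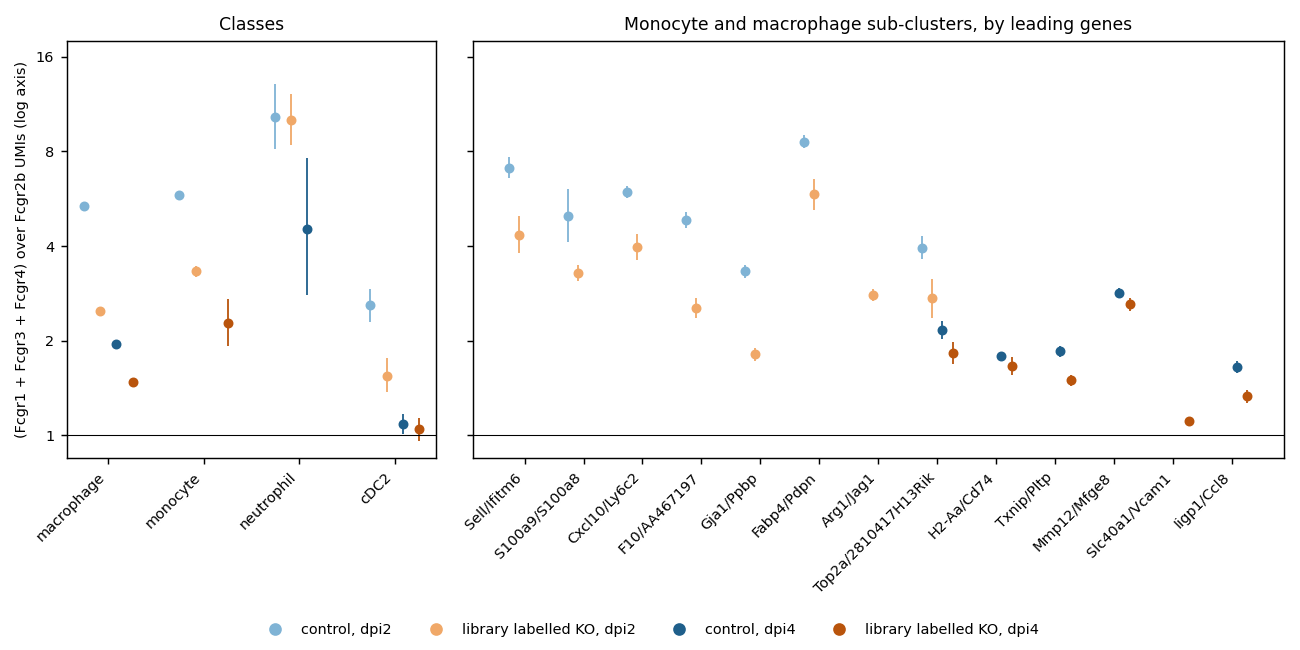
Ratio of activating (*Fcgr1*, *Fcgr3* and *Fcgr4*) to inhibitory (*Fcgr2b*) UMIs (log axis) by class and by sub-cluster, for libraries with at least 50 cells; bars are 95% intervals. At dpi2 each point of the KO-labelled library lay under its control in macrophages (2.48 against 5.36) and in the sub-clusters, while the neutrophil points divide by *Fcgr2b* at background.

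**Figure D4:**
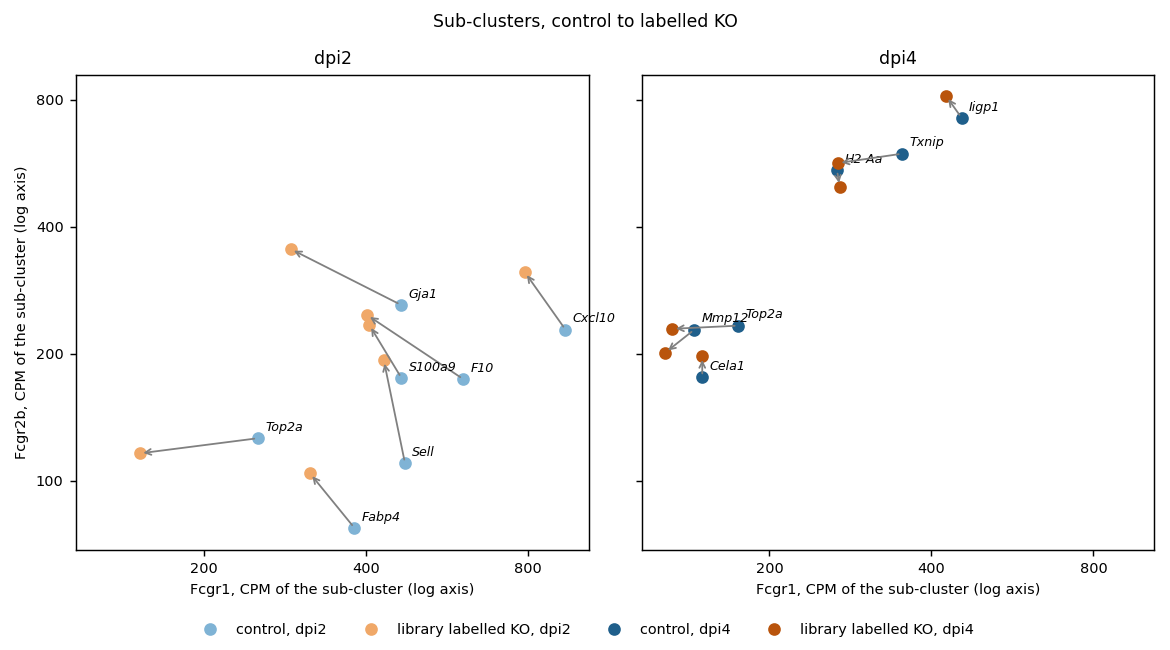
*Fcgr1* against *Fcgr2b*, in CPM of the sub-cluster (log axes), with an arrow from the control to the KO-labelled library for each sub-cluster with at least 50 cells in each. At dpi2 the 7 arrows point to lower *Fcgr1* and, in 6, to higher *Fcgr2b*; at dpi4 the arrows are short.

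From dpi2 to dpi4 *Fcgr2b*, *Fcgrt* and *Fcgr4* were called higher in macrophages under each genotype label. In control macrophages *Fcgr2b* went from 126 to 448 CPM, a ratio of 3.56 (3.45 to 3.67), and *Fcgrt* from 33.9 to 126 CPM, a ratio of 3.71 (3.49 to 3.93). *Fcgr3* went from 235 to 486 CPM, a ratio of 2.07 (2.02 to 2.12), and *Fcgr4* from 71.2 to 134 CPM, a ratio of 1.89 (1.81 to 1.97). Of the members only *Fcgr1* was lower, from 368 to 256 CPM, at a ratio of 0.695 (0.679 to 0.711) that was short of the rule. In the KO-labelled library the ratios were 2.19 (2.13 to 2.25) for *Fcgr2b*, 2.07 (1.97 to 2.18) for *Fcgrt*, 1.42 (1.38 to 1.46) for *Fcgr3* and 2.70 (2.54 to 2.88) for *Fcgr4*. The rule called 4 of 6 members in the control, beside 35.0% of 11755 genes, and 3 of 6 in the KO-labelled library, beside 32.3% of 11446 genes. These comparisons share their libraries with those between the genotype labels. Macrophages at each time came from different sub-clusters, and the summed macrophage markers themselves went from 10697 to 38315 CPM in the control.

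In cDC2 *Fcgr2b*, *Fcgr3* and *Fcgr4* were called higher at dpi4 under each label. In the control *Fcgr3* went from 41.7 to 209 CPM, a ratio of 5.01 (4.14 to 6.11), *Fcgr4* from 20.5 to 71.3 CPM, a ratio of 3.48 (2.62 to 4.68), and *Fcgr2b* from 121 to 374 CPM, a ratio of 3.09 (2.75 to 3.48). In the KO-labelled library these ratios were 2.57 (2.15 to 3.08), 2.76 (2.02 to 3.83) and 2.27 (2.02 to 2.55). *Fcgr4* at dpi2, with 20.5 CPM (15.7 to 26.4) and 16.8 CPM (12.6 to 21.9), met the T-cell interval, so the size of its ratios is not read. *Fcgr1* was called lower in the control, at a ratio of 0.498 (0.443 to 0.559), and had 0.951 (0.830 to 1.09) in the KO-labelled library. The rule called 4 of 6 members in the control, beside 24.0% of 7727 genes, and 3 of 6 in the KO-labelled library, beside 21.0% of 7809 genes. The summed macrophage markers in control cDC2 went from 535 to 6979 CPM over the same interval, and their part in these values was not tested. In control neutrophils, of which 129 were kept at dpi4, *Fcgr3* went from 325 to 203 CPM, a ratio of 0.625 (0.484 to 0.798), and *Fcgr4* from 130 to 43.3 CPM, a ratio of 0.333 (0.187 to 0.554). With *Fcgr1*, these were 3 of 5 members called, beside 30.0% of 4356 genes, where TMM moved all log2 ratios by -0.39 and called the same number. *Fcgr1* there rests on 4 UMIs at dpi4. In these neutrophils the neutrophil markers went from 52620 to 34391 CPM, the macrophage markers from 558 to 3048 CPM and the monocyte markers from 1648 to 417 CPM, and their part in the *Fcgr3* and *Fcgr4* values was not tested.

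Few of the genes that carry the receptors' signals were called between the labels. Of 16 genes of the activating pathway, such as *Syk*, *Lyn* and *Plcg2*, none was called in macrophages at dpi2 or dpi4 or in monocytes at dpi2, and their median log2 ratios were 0.17, 0.02 and -0.02 beside -0.02, 0.01 and -0.01 for all genes. Of 8 genes of the inhibitory pathway, such as *Inpp5d* and *Ptpn6*, none was called in the same comparisons, with medians of -0.16, -0.04 and -0.25. In these comparisons 11.3%, 7.16% and 11.5% of all genes were called, so a count of 0 in lists of this size is no result about them. Of 15 activating genes tested in neutrophils at dpi2 only *Vav3* was called, lower at a log2 ratio of -0.59. TMM moved the ratios there up by 0.37, which leaves *Vav3* short of the rule. In cDC2 *Fgr* was called higher at dpi2 (0.63), 1 of 16 activating genes, and *Dok2* lower at dpi4 (-1.03), 1 of 8 inhibitory genes. The shares of all genes called were 26.4%, 9.66% and 4.92%, and these 3 genes were named after their values were seen. *B2m*, the partner of the neonatal Fc receptor, had log2 ratios of -0.31 and 0.34 in macrophages at dpi2 and dpi4. It had -0.30 in monocytes at dpi2. In neutrophils at dpi2 it was called lower at -0.61, or -0.24 with TMM. In cDC2 it had -0.39 at dpi2 and 0.23 at dpi4 and was not called.

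Among other receptors that use the common gamma chain or related adaptors, *Clec4n* and *Clec4e* were called. *Clec4n*, which encodes the fungal receptor Dectin-2, had 23.3 CPM in control macrophages and 268 CPM in KO-labelled ones at dpi2, which is 3.53 on the log2 scale (3.43 to 3.63). At dpi4 it had 164 and 492 CPM, which is 1.59 on the log2 scale (1.55 to 1.62). *Clec4e*, which encodes Mincle, had 65.5 and 214 CPM (log2 ratio 1.71, interval 1.64 to 1.77) at dpi2, but 57.8 and 37.1 CPM (log2 ratio -0.64, interval -0.72 to -0.55) at dpi4. Of the 8 genes of this list, 5 had enough UMIs, and 2 were called higher and none lower at dpi2, and 1 higher and 1 lower at dpi4, where 11.3% and 7.16% of all genes were called. Of 10 other Fc receptor genes, 3 had enough UMIs in macrophages. *Trim21*, a cytosolic antibody receptor, was lower at dpi2 at a log2 ratio of -0.78, with 14.0 and 8.16 CPM over 782 UMIs. The Fc receptor-like gene *Fcrls* was lower at dpi4 at -0.79 (-0.83 to -0.74), with 206 and 119 CPM, and *Fcrl1* was higher at 0.71 (0.56 to 0.85), with 11.8 and 19.2 CPM. Of 8 immunoglobulin genes only *Jchain* was matched in the files, and in macrophages at dpi4 it had 12.1 CPM in the control and 0.0869 CPM in the KO-labelled library. Macrophages are not known to make this transcript, which belongs to plasma cells.

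Interferon response genes were lower beside *Fcgr1* and *Fcgr4* in macrophages and monocytes at dpi2, and other comparisons varied in this. Of 13 such genes, 12 were called lower and none higher in macrophages at dpi2, with a median log2 ratio of -1.42, and the same counts were found in monocytes, with a median of -1.35. *Ifit3* had 121 CPM in control macrophages and 29.9 CPM in KO-labelled ones, and *Ifit2* had 54.1 and 16.6 CPM. Summed over the list, macrophages had 1482 and 610 CPM at dpi2 and 1442 and 1325 CPM at dpi4, where none of the 13 was called. Monocytes at dpi2 had 5321 and 2161 CPM. In cDC2 at dpi2 13 of 13 were called lower, where *Fcgr1* was called lower at a ratio of 0.521 (0.460 to 0.588). *Fcgr4* there, at levels that met the T-cell interval, had 0.817 (0.554 to 1.20). In neutrophils at dpi2 12 of the 12 tested were called lower, where *Fcgr4* had 0.862 (0.721 to 1.03). With the unnamed neutrophil-like cluster added, *Fcgr4* was lower under the KO label, at 83.1 CPM against 122 CPM. From dpi2 to dpi4 in KO-labelled macrophages 10 of 13 were called higher, where *Fcgr1* had a ratio of 0.922 and *Fcgr4* of 2.70. In control macrophages 4 were higher and 2 lower, with 0.695 and 1.89. In control cDC2 11 of 13 were called lower and 1 higher, where *Fcgr1* had 0.498. In KO-labelled cDC2 4 were higher and 1 lower, where it had 0.951. In control neutrophils 11 of the 12 tested were called lower, where *Fcgr4* had 0.333. The part of this list in the *Fcgr1* and *Fcgr4* values was not tested. Among 5 myeloid regulators, *Cebpb* was called higher at each time, with 475 and 1037 CPM (log2 ratio 1.13, interval 1.10 to 1.15) at dpi2, and 444 and 670 CPM (log2 ratio 0.59, interval 0.57 to 0.62) at dpi4, while *Spi1*, which encodes PU.1, was not called at either.

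**Figure D5:**
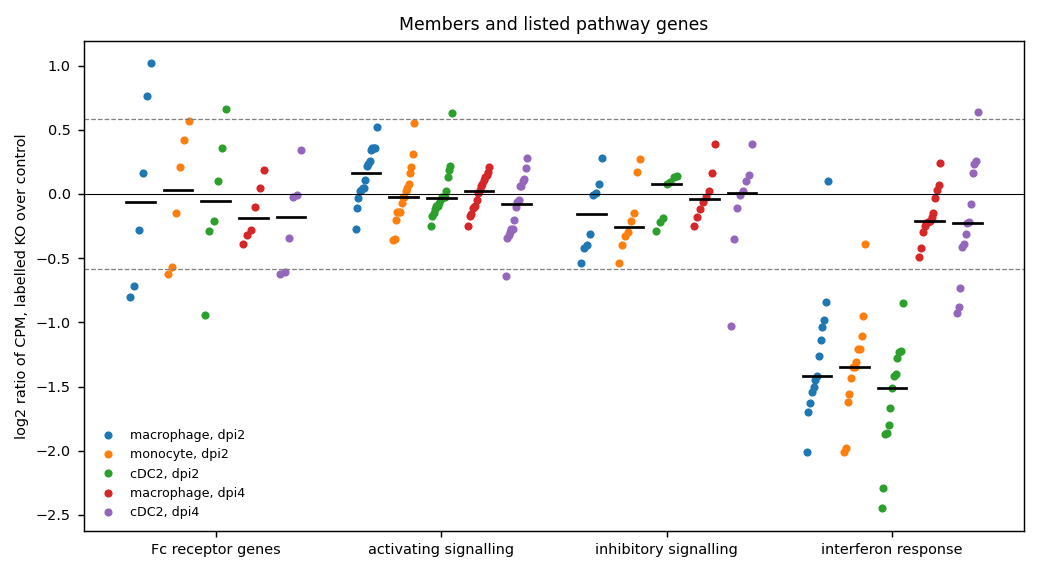
Log2 ratio of CPM, KO-labelled library over control, for the 6 members and for listed genes of activating signalling, inhibitory signalling and the interferon response; each point is a gene, black bars are medians and dashed lines mark 1.5-fold. At dpi2 the interferon medians were -1.42 in macrophages and -1.35 in monocytes, while the signalling lists centred near 0.

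The genes whose levels followed each member most closely were sought over 19 points, each a class in a library with at least 50 cells, among 5591 genes. For *Fcgr1* these were *Ms4a6d* (Pearson r of 0.944), *2310022A10Rik* (0.927) and *Lgals8* (0.923), and for *Fcgr2b* *Tifa* (0.932), *P2ry6* (0.915) and *Scarb1* (0.915). *Fcgr3* was followed by *Fgd4* (0.940), *Pla2g7* (0.937) and *Cd300lb* (0.934), and *Fcgr4* by *Cd300lb* (0.945), *Fgd4* (0.930) and *Mtus1* (0.925). *Fcer1g* was followed by *Itgam* (0.869), *Tyrobp* (0.854), which encodes the sister adaptor DAP12, and *Map7d1* (0.835), and *Fcgrt* by *Pkib* (0.922), *Gdi2* (0.914) and *Gltp* (0.913). Among the members *Fcgr3* and *Fcgr4* were the most alike pair, with an r of 0.93, and *Fcgrt* and *Fcer1g* the least, with -0.06. The points share libraries and differ in depth, so these values are a description.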

How the data were processed

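Single-cell RNA sequencing had been run on 4 libraries, 1 per group. For each, the authors deposited raw UMI counts per gene and cell barcode from Cell Ranger 6.1.2 with mm10, per the labels, without normalization. Barcodes with a mitochondrial share under 10% and at least 500 genes were kept, and the highest Scrublet doublet scores were removed at 0.8% per 1000 cells. Counts were scaled to 10000 per cell, and 2000 variable genes, without the 68 member and listed genes, gave 30 principal components, 15 neighbours and Leiden clusters at resolution 1 (scanpy 1.11.5, leidenalg 0.10.2). Clusters were named from fixed markers, and 3 of them stayed unnamed. These replace the study's own filters and integration, so class names may differ from the study's.

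UMIs were summed per class and library as CPM of the class. Intervals are exact Poisson for levels, exact conditional binomial for ratios, exact binomial for shares, and a Wald interval on the log scale where ratios of activating to inhibitory UMIs were divided. Free RNA and repeat counting are not covered by them. No test was run with 1 library per group. A gene was called at 1.5-fold or more with an interval leaving out 1 and at least 50 UMIs in the pair. Listed genes were named where called in macrophages in 1 direction at both times, and otherwise the 2 largest at each time. Likeness used log2(CPM + 10) of genes reaching 50 CPM. The counting steps were tested on simulated data. Alternatives covered TMM factors (edgeR 4.0.16), filters, clustering and fold limits. Members, lists and alternatives were chosen with earlier results of these data known. Of the labels and the study's methods, the first name another 10x kit version than the second, and which was used is not settled here.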

Additional observations from a re-analysis of the deposited data

How the results depend on the processing

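No paired analysis was possible because each group was 1 library and the labels carry no replicate numbers. Of 201 alternative values of the 27 member ratios that passed the size rule, 201 kept their direction, and of 287 values of the other 37 ratios 269 did. The 27 were picked for their size in these data and each alternative reuses the same libraries. A kept direction is therefore no independent check. The number of members called in macrophages at dpi2 was 1 at a 2-fold limit. In monocytes at dpi2 it was 0 at a 2-fold limit and 0 with listed genes allowed among the variable genes, 2 with at least 200 genes per cell, with a mitochondrial share under 20% or with each library clustered by itself, and 3 with doublets kept, at Leiden resolution 0.5 or with monocytes and macrophages pooled. In neutrophils at dpi2 it was 0 at 200 UMIs, and in cDC2 at dpi2 0 at 2-fold. In cDC2 at dpi4 it was 1 with at least 200 genes per cell and 0 with doublets kept or at 2-fold. The activating to inhibitory ratio, KO-labelled library over control, was 0.495 in macrophages and in monocytes at dpi2 when these were pooled. With sub-cluster weights, an alternative chosen after seeing the data, it was 0.650 in macrophages at dpi2, 0.870 at dpi4 and 0.627 in monocytes. In monocytes it was 0.542 with each library clustered by itself and 0.625 with listed genes allowed. Apart from the limits of fold and UMIs, the cause of these moves was not tested. Clustering each library by itself gave no cDC2 at dpi2, so no value. Depth limits classes under 50 cells, and no setting can show the spread between mice.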

Other observations

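A cluster of 595 cells that took no name, led by *Pdcd1lg2* and *Il1f9*, held 89 control cells and 490 KO-labelled cells at dpi2. It detected 6 of the neutrophil markers, at a median of 3437 UMIs per cell. *Fcgr3* stood at 205 CPM (153 to 268) in its control cells and 173 CPM (155 to 193) in its KO-labelled cells, and *Fcer1g* at 4024 CPM (3784 to 4276) and 2208 CPM (2141 to 2277). *Fcgr2b* had 162 CPM (117 to 219) and 118 CPM (103 to 135), above the 50.8 and 41.6 CPM of the cells named neutrophils. Its ratio of activating to inhibitory UMIs was 1.93 (1.31 to 2.87) in control cells and 1.85 (1.56 to 2.19) in KO-labelled cells, where named neutrophils, whose *Fcgr2b* is at background, had 10.3 and 10.1.

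Plasmacytoid dendritic cells, 56 over the 4 libraries, had 1220 CPM (1123 to 1324) of *Fcer1g* and 60.9 CPM (40.8 to 87.5) of *Fcgrt*, both above the T-cell intervals, while *Fcgr1* was at 10.5 CPM (3.41 to 24.5). Mature dendritic cells, marked by *Ccr7* and *Fscn1*, had 666 CPM (627 to 707) of *Fcer1g* over 149 cells, and their *Fcgrt* was at 21.4 CPM (14.9 to 29.8), within the T-cell interval and under the 122 CPM of cDC1.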
